A study of Homo sapiens with 3 samples.

Results

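The tetraspanin gene family was described in HEK293T cells, an established line of human embryonic kidney origin, made from HEK293 by adding the large T antigen gene of SV40. Members were all gene symbols made of TSPAN and a number, together with CD9, CD37, CD53, CD63, CD81, CD82, CD151, UPK1A, UPK1B, PRPH2 and ROM1, which gave 33 of the 35880 symbols in the deposited table, all 33 annotated as protein coding. Untreated cells were grown in high-glucose DMEM with 10% FBS to 70% confluence, and oligo-dT captured RNA from 3 libraries labelled biological replicates 1, 2 and 3 was sequenced. The 3 libraries form 1 group of 1 cell line with no treatment or genotype to contrast, so the question asked was which family members were expressed, at what level and as which transcripts. Whether the replicates were separate cultures is not stated, and every p-value therefore rests on the spread between 3 libraries, which may be technical only.

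Tetraspanins are small proteins that cross the membrane repeatedly, with both ends in the cytoplasm, a small and a large extracellular loop, and palmitoylated cysteines near the membrane. They have few soluble ligands; instead they bind one another and partners such as integrins, immunoglobulin-superfamily proteins and the protease ADAM10, and organise them into membrane microdomains that govern adhesion, trafficking and shedding. CD9, CD63 and CD81 are the usual protein markers of extracellular vesicles, which HEK293-derived cells are often used to produce.

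Levels are in TPM (transcripts per 1000000, which corrects for transcript length and so allows levels of different genes to be compared) and are given as mean ± SD over the 3 libraries (n = 3). The family summed to 1366, 1369 and 1369 TPM in replicates 1, 2 and 3, or 0.137% of all TPM in each. That sum was nearly constant, and it was concentrated in few genes. TSPAN3, CD63 and CD81 together held 63.9 ± 0.621 percent of it, and with CD151 and TSPAN6 the share was 79.6 ± 0.427 percent. Of the 33 genes, 4 lay at 100 TPM or more, 11 between 10 and 100 TPM, 9 between 1 and 10 TPM, 7 under 1 TPM but above 0 in some library, and 2 were listed at 0 throughout.

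Each level was compared with 1 TPM by limma's moderated one-sample test, fitted on all 21990 symbols above 0 in at least 1 library and called at a Benjamini-Hochberg adjusted p under 0.05. Of the 33 members, 31 could be tested: 22 lay above 1 TPM, 7 below it, and UPK1B and TSPAN19 were undecided. Over all symbols tested 58.5% lay above, 33.9% below and 7.64% were undecided, and over the protein-coding symbols tested the shares were 70.7%, 23.7% and 5.57%. Among all symbols 38.7% were listed at 0 in every library, and of protein-coding symbols 13%, against the 2 members CD53 and TSPAN1. The members' counts are therefore close to those of coding genes at large. On the log2 scale relative to 1 TPM, the median over the 31 tested members was 3.26, against 2.07 over all symbols tested and 3.42 over coding symbols tested. The genes listed as HEK293 markers, NEFL, NEFM, INA, VIM and PAX2, all lay above 1 TPM, as did 70.7% of coding symbols tested. They ranged from 1.57 ± 0.0836 TPM for PAX2 to 401 ± 8.62 TPM for VIM. That list was chosen with earlier results of these data known, so it is no independent check of cell identity.

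**Figure D1:**
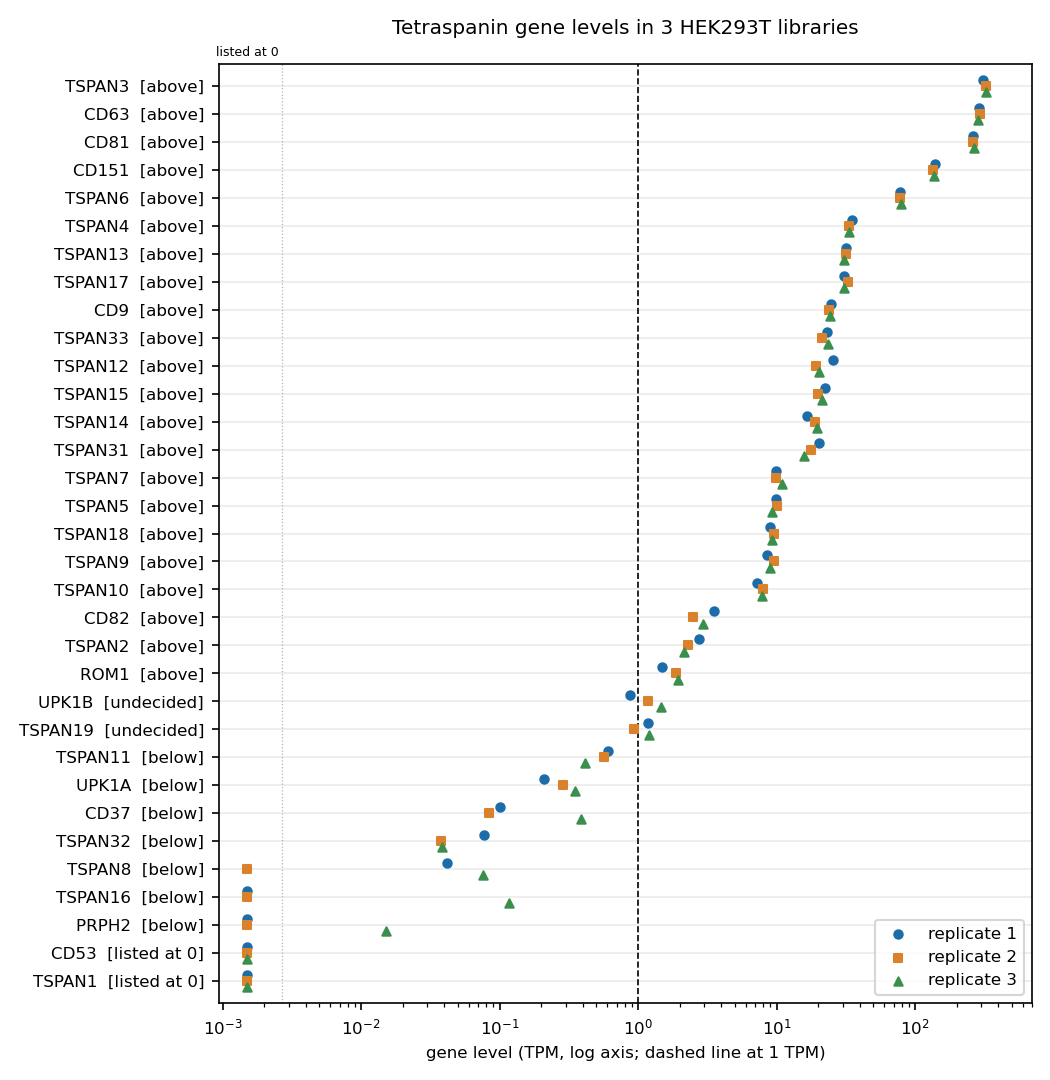
Level of each of the 33 tetraspanin genes (rows, ordered by mean, with the call against 1 TPM in brackets) in TPM on a log axis, 1 point per library; values of 0 are drawn at the left edge. The points of a gene lie close together from TSPAN3 down to TSPAN10 and spread out below 1 TPM, where CD37 differs widely between libraries and TSPAN8, TSPAN16 and PRPH2 are at 0 in some of them.

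The vesicle markers differed in level from one another. CD63, a late endosome and lysosome tetraspanin that reaches exosomes by way of multivesicular bodies, stood at 291, 293 and 287 TPM in replicates 1, 2 and 3. CD81, a surface tetraspanin known as a co-receptor of B cells and of hepatitis C virus, stood at 261, 263 and 265 TPM. These values do not overlap, and CD63 exceeded CD81 by a ratio of 1.10 ± 0.0179 within libraries. CD9, which acts in gamete fusion, adhesion and vesicle formation, was much lower at 24.9, 24.0 and 24.2 TPM. Within libraries CD81 was 10.8 ± 0.279 times and CD63 11.9 ± 0.257 times the level of CD9. All 3 lay above 1 TPM, where 70.7% of protein-coding symbols tested also lay. Their log2 levels relative to 1 TPM were 8.17 ± 0.012 (SE) for CD63, 8.03 ± 0.011 for CD81 and 4.59 ± 0.026 for CD9 (limma adjusted p = 1.37e-08 for CD9, the largest of the 3). CD63 and CD81 had more RNA than 97.7% and 97.4% of protein-coding symbols, and CD9 more than 70.2%.

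TSPAN3, a widely expressed tetraspanin with roles in neural and blood progenitor cells, had the highest summed level of the family at 311, 326 and 324 TPM (320.4 ± 7.87, log2 level 8.31 ± 0.017, SE). Its lowest library was above the highest library of CD63. TSPAN6, which has been tied to endosomal sorting of the amyloid precursor protein, followed CD151 in the order at 77.6, 77.7 and 79.2 TPM. TSPAN7, an X-linked gene tied to synapse formation and intellectual disability, stood at 9.86, 9.92 and 10.997 TPM, with replicate 3 the highest. TSPAN2, an oligodendrocyte-associated member, was lowest of these neural members at 2.76, 2.31 and 2.13 TPM and still above 1 TPM (limma adjusted p = 0.000505).

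All 6 TspanC8 genes lay above 1 TPM, as did 70.7% of protein-coding symbols tested. The TspanC8 group takes its name from the cysteines in its large loop and escorts ADAM10, the sheddase that cleaves Notch, N-cadherin and the amyloid precursor protein, out of the endoplasmic reticulum; each member steers ADAM10 toward different substrates. TSPAN17 was highest at 30.9, 32.7 and 30.5 TPM in replicates 1, 2 and 3, then TSPAN33 at 23.0, 21.3 and 23.4 TPM and TSPAN15, known to direct ADAM10 to N-cadherin, at 22.3, 19.9 and 21.3 TPM. The range of TSPAN17 lies above both others, and those of TSPAN33 and TSPAN15 overlap. TSPAN14, which like TSPAN5 favours Notch cleavage, reached 16.5, 18.8 and 19.5 TPM, with replicate 1 the lowest. TSPAN5 and TSPAN10 were lower, at 9.70 ± 0.432 and 7.71 ± 0.394 TPM. TSPAN10 is also known from pigment cells, whose markers PMEL, TYR and MLANA summed to 2.33, 2.30 and 1.63 TPM, with PMEL above 1 TPM at 1.599 ± 0.243 and the other two below it. Summed, the 6 genes gave 109.9, 111 and 112 TPM, against 43.4, 42.2 and 43.0 TPM for ADAM10, a within-library ratio of 2.58 ± 0.0463. The substrates fixed in the list were also above 1 TPM: APP at 187 ± 3.09, NOTCH2 at 35.2 ± 0.635, CDH2 at 24.2 ± 0.440 and NOTCH1 at 7.47 ± 0.214 TPM.

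Among members linked to adhesion and tumours, 4 of 6 lay above 1 TPM, against 70.7% of protein-coding symbols tested. TSPAN1, listed at 0, was not tested. CD151, which binds laminin-binding integrins directly and stabilises adhesion, stood at 139.6, 134 and 136 TPM. CD82, known as a suppressor of metastasis, was far lower at 3.54, 2.47 and 2.93 TPM, with replicate 1 the highest, and the within-library ratio of CD151 to CD82 was 46.7 ± 7.33. TSPAN13 reached 31.7, 31.6 and 30.9 TPM, the next most constant of the members of at least 10 TPM after CD81, CD63 and TSPAN6. TSPAN31, first found amplified in sarcoma beside CDK4, stood at 20.1, 17.8 and 15.8 TPM. TSPAN8, best known from gastrointestinal tumours, was listed at 0.0416, 0 and 0.0762 TPM and called below 1 TPM (limma adjusted p = 0.00441), and TSPAN1, an epithelial member, was listed at 0 in all 3 libraries.

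The members linked to migrasomes, vesicle-like organelles left on the retraction fibres of moving cells, all lay above 1 TPM. So did 70.7% of protein-coding symbols tested. TSPAN4, whose enrichment defines these structures, stood at 35.3, 33.3 and 33.4 TPM. TSPAN9 and TSPAN18 were lower, at 8.47, 9.58 and 8.95 and 8.97, 9.52 and 9.31 TPM, and their ranges overlap. TSPAN12, which joins the receptor FZD4 in Norrin signalling of retinal vessels, stood at 25.7, 19.3 and 20.3 TPM. Replicate 1 lay above the others, and this CV of 15.9% was the largest among the 15 members of at least 10 TPM, whose median CV was 3.31% against 3.36% over all 9056 symbols at that level. Most of the difference between libraries sat in transcripts with an incomplete coding sequence. TSPAN12-204 (693 bases) stood at 14.1, 8.29 and 9.31 TPM, whereas the transcripts of TSPAN12 with a complete coding sequence of at least 600 bases summed to 9.21, 9.88 and 8.75 TPM. The other genes of that pathway lay above 1 TPM as well, LRP5 at 28.5 ± 1.66, LRP6 at 17.8 ± 0.627, FZD4 at 3.21 ± 0.0807 and the ligand gene NDP at 1.86 ± 0.152 TPM.

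Members tied to leukocytes were low or listed at 0. CD53, found on most leukocytes, was listed at 0 in all 3 libraries. CD37, a B cell tetraspanin, was listed at 0.101, 0.0842 and 0.385 TPM, with replicate 3 well above the others, and TSPAN32 at 0.0775, 0.0380 and 0.0382 TPM. Both were called below 1 TPM (limma adjusted p = 0.00866 and 0.00116), but CD37 lost its call without replicate 1 or without replicate 2 (limma adjusted p = 0.0641 and 0.0518), and its TPM on transcripts typed protein coding was 0 in all 3 libraries. The 5 leukocyte markers PTPRC, CD3E, SPI1, ITGB2 and CORO1A summed to 10.1, 10.7 and 9.46 TPM. Of them PTPRC (0.320 ± 0.136 TPM) and SPI1 (0.151 ± 0.117 TPM) lay below 1 TPM, CD3E was listed at 0, and CORO1A (4.999 ± 0.315 TPM) and ITGB2 (4.61 ± 0.837 TPM) lay above it. The part of other cells in these values was not tested. The RNA of a bulk sample cannot tell fewer cells from less RNA per cell.

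Photoreceptor and urothelial members were low, and only ROM1 was called above 1 TPM. ROM1, the rod outer segment partner of PRPH2, stood at 1.49, 1.89 and 1.94 TPM and was called above 1 TPM (limma adjusted p = 0.00365), while PRPH2, which shapes the rim of photoreceptor discs, was listed at 0, 0 and 0.0151 TPM. The photoreceptor markers CRX, NRL and RCVRN summed to 1.59, 1.59 and 1.41 TPM; CRX and RCVRN lay below 1 TPM and NRL was undecided. ROM1 was led by no single transcript: the most abundant was ROM1-202 in replicate 1, ROM1-203 in replicate 2 and ROM1-205 in replicate 3, and the one transcript with a complete coding sequence of at least 600 bases gave only 0.414, 0.0889 and 0.203 TPM. UPK1B and UPK1A, which form the plaques of the bladder surface with UPK3A and UPK2, stood at 0.881, 1.19 and 1.46 and 0.210, 0.287 and 0.351 TPM. UPK1B could not be placed on either side of 1 TPM (limma adjusted p = 0.347) and UPK1A lay below it. Their partners UPK3A and UPK2 were at or near 0, with UPK3A listed at 0 and UPK2 at 0.117, 0 and 0 TPM. UPK3B, also in the list of uroplakin partners, stood higher at 0.369, 0.415 and 0.802 TPM. The urothelial keratin genes KRT20 and KRT5 were listed at 0.

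The less studied members were low. TSPAN19 was undecided at 1.18, 0.928 and 1.20 TPM, with a log2 level of 0.13 (limma adjusted p = 0.433). With protein-coding transcripts only its log2 level was -0.78, again undecided (limma adjusted p = 0.0684). TSPAN11 lay below 1 TPM at 0.607, 0.567 and 0.417 TPM, and TSPAN16 was listed at 0, 0 and 0.117 TPM. TSPAN16 lost its call without replicate 1 (limma adjusted p = 0.0512), and without replicate 3 both TSPAN16 and PRPH2 were listed at 0. Few reads were listed for the lowest members. In the authors' deposited column of estimated counts, which names no library and sums to 33184885, TSPAN3 had 8790 reads, CD81 7956, CD63 4912 and CD9 605. By contrast TSPAN11 had 43, UPK1B 31, ROM1 29, TSPAN19 22, CD37 7, UPK1A 4, TSPAN32 2 and TSPAN8 1. TSPAN16, PRPH2, CD53 and TSPAN1 had 0 there, rounded to whole reads. Since TSPAN16 and PRPH2 were above 0 TPM in replicate 3, the column may not cover every library.

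Ordered by mean level, the 31 members above 0 make 30 neighbouring pairs, of which 17 did not overlap between libraries and 13 did. Every pair down to TSPAN4 and TSPAN13 was separate, so the order TSPAN3, CD63, CD81, CD151, TSPAN6, TSPAN4 held in each of the 3 libraries. Overlaps began with TSPAN13 and TSPAN17 (both at 31.4 TPM on average), and were found between TSPAN33, TSPAN12 and TSPAN15, between TSPAN14 and TSPAN31, from TSPAN7 through TSPAN5 and TSPAN18 to TSPAN9, and between CD82 and TSPAN2. At the low end UPK1B overlapped TSPAN19, UPK1A overlapped CD37, and TSPAN32, TSPAN8, TSPAN16 and PRPH2 each overlapped the next.

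Summed levels do not say which proteins the RNA can encode, so the transcripts were examined. All 309 transcripts of the members matched GENCODE release 29 in identifier and length. Of the 24 members with a mean of at least 1 TPM, 20 had the same most abundant transcript in every library. Its share of the gene's TPM had a median of 52.8%, from 27.2% in TSPAN14 to 100% in TSPAN13. CD81 (CD81-201, 90.4% ± 1.89, SD, n = 3), TSPAN6 (TSPAN6-201, 89.3% ± 1.08), TSPAN7 (TSPAN7-202, 95.2% ± 4.98) and TSPAN5 (TSPAN5-201, 80.2% ± 5.77) were each carried mainly by 1 transcript. TSPAN14 was divided between TSPAN14-210 and TSPAN14-205 at 27.2% ± 3.92 and 26.9% ± 1.49, and the 4 members whose leading transcript changed between libraries were TSPAN14, TSPAN2, ROM1 and TSPAN19.

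TSPAN3 showed the widest gap between summed level and full-length coding RNA among the abundant members. Its most abundant transcript, TSPAN3-210, held 30.9% ± 0.649 of the gene's TPM but has an annotated coding sequence of 135 bases, as has TSPAN3-205 (17.0% ± 1.12). A further 21.1% ± 2.28 was assigned to TSPAN3-204, a processed transcript with no coding sequence. Transcripts with a complete coding sequence of at least 600 bases, a length chosen after the data were seen, held 21.2% ± 2.62 of TSPAN3, or 73.1, 59.6 and 70.6 TPM in replicates 1, 2 and 3. On that measure CD81 was highest at 242, 239 and 236 TPM, and CD63 followed at 142, 138 and 147 TPM and CD151 at 89.1, 90.1 and 91.6 TPM. TSPAN3 and TSPAN6 (69.9, 68.4 and 71.1 TPM) then overlap. CD63 was divided as well: CD63-201, with 714 coding bases, held 43.4% ± 2.06, the shorter CD63-204, with 468, held 34.3% ± 2.09, and CD63-209, typed as a nonsense-mediated decay transcript, held 12.7% ± 1.31. CD9 was carried by CD9-201, with 684 coding bases (60.3% ± 6.81), and CD9-212, with 546 (25.0% ± 5.45). Over the 24 genes the median share on such long coding transcripts was 67.1%, over 80% in 7 genes and under 50% in 8. The division of reads between transcripts that share exons is itself an estimate.

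**Figure D2:**
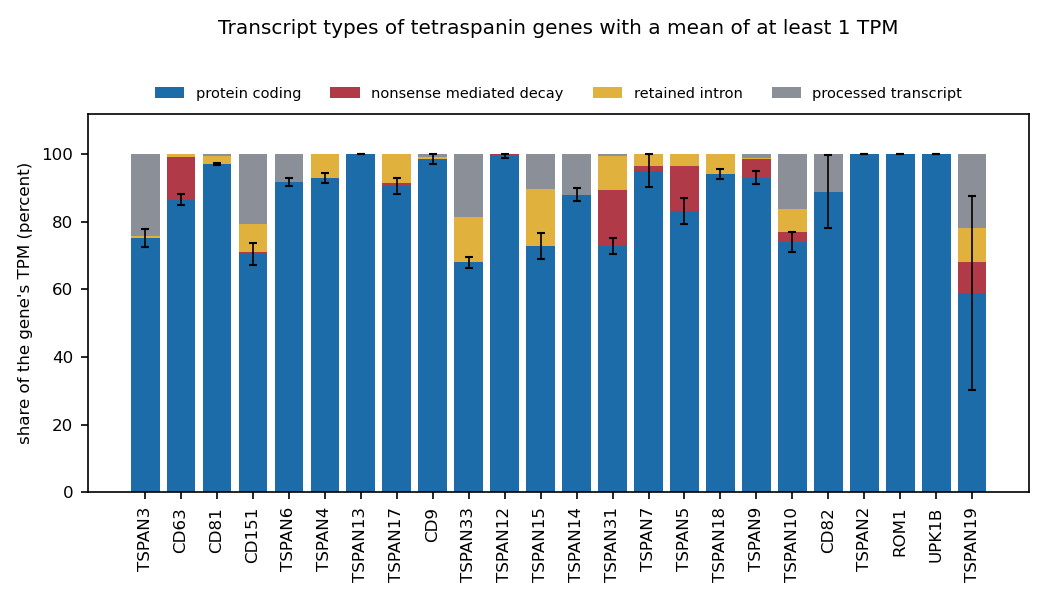
Share of each gene's TPM (percent, mean of 3 libraries) by annotated transcript type for the 24 tetraspanin genes of at least 1 TPM, ordered by level; error bars are the SD of the protein-coding share over 3 libraries. CD81, CD9 and TSPAN13 are almost wholly protein coding, whereas TSPAN3, CD151, TSPAN33, TSPAN15, TSPAN31, TSPAN10 and TSPAN19 have a protein-coding share under 80%.

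By transcript type, protein-coding transcripts held a median of 91.3% of a gene's TPM. It was lowest in TSPAN19, at 79.5%, 71.1% and 26.01% in replicates 1, 2 and 3, a gene near 1 TPM. Among the more abundant members the share was low in TSPAN33 (68.1% ± 1.58), CD151 (70.4% ± 3.19), TSPAN31 (72.8% ± 2.39) and TSPAN15 (72.9% ± 3.74). In CD151 the largest other part was CD151-222, a processed transcript of 525 bases (19.7% ± 1.503), and in TSPAN33 it was TSPAN33-203, of 472 bases (18.5% ± 3.31). Retained-intron transcripts held 16.8% ± 6.79 of TSPAN15 and 13.4% ± 2.04 of TSPAN33. Nonsense-mediated decay transcripts held 16.7% ± 3.79 of TSPAN31, 13.4% ± 4.41 of TSPAN5 and 12.7% ± 1.31 of CD63. TSPAN4 and TSPAN12 were led by transcripts whose annotated coding sequence is incomplete, TSPAN4-217 (40.6% ± 3.33) and TSPAN12-204 (47.9% ± 6.19).

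Sequence shared with other genes could move reads between symbols, so the 31-base words of each member's transcripts were looked up in other symbols' transcripts. Only transcripts matched to GENCODE release 29, 90.4% of those listed, were searched. Of 33 members, TSPAN7 shared the most on its own strand, 20.3%, with AF241726.2, which was listed at 0. On the opposite strand TSPAN31 shared 22.9% of its words with CDK4 (283 TPM) and ROM1 shared 20.5% with EML3 (24.5 TPM). The next largest opposite-strand shares with any single symbol were 6.04% of CD37 with TEAD2 (21.6 TPM) and 4.66% of CD151 with POLR2L (279 TPM). The libraries were directional, but the strand setting of the quantification is not given in the sources used here, so the part of CDK4 and EML3 reads in the levels of TSPAN31 and ROM1 was not tested. Among the transcripts searched, CD63, CD81, CD9, TSPAN13, TSPAN12 and TSPAN4 shared no word with another symbol on either strand.

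Members are scattered over the genome, with 7 on chromosome 11 and 7 on chromosome 12 (hg38, GENCODE release 29). Close neighbours did not have the same level. CD151 (chromosome 11, 832843 to 839831) and TSPAN4 (842808 to 867116) lie 2976 bases apart on the plus strand, and CD151 was 4.02 ± 0.0620 times the level of TSPAN4. CD81 (2376177 to 2397419) and TSPAN32 (2301997 to 2318200) lie 57976 bases apart, at 263 and 0.0512 TPM. CD82 and TSPAN18, 106101 bases apart, stood at 2.98 and 9.27 TPM.

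Promoter sequence was set beside level by counting CG steps, the sites of DNA methylation. As examples of starts with more and fewer CG steps, the 250 bases before the start of 2 expressed TspanC8 genes, picked after values were seen from those with at least 10 CG steps, and of the 2 members listed at 0 are printed 5′ to 3′ from RefSeq (GRCh38.p14), with each CG in capitals. They lie at chr4:98658612-98658861 on the minus strand for TSPAN5, chr10:69451215-69451464 on the plus strand for TSPAN15, chr1:110872898-110873147 on the plus strand for CD53 and chr1:46174837-46175086 on the plus strand for TSPAN1.
TSPAN5: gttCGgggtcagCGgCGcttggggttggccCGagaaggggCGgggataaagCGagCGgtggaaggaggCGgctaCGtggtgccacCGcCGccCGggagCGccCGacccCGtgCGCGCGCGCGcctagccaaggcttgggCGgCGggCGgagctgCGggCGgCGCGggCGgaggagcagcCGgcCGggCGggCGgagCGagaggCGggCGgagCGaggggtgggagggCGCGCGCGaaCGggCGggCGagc
TSPAN15: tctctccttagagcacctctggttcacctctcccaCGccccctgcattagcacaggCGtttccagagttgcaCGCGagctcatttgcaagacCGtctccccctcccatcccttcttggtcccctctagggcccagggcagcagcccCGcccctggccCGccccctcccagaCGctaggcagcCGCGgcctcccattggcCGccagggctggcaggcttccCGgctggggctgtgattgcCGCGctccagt
CD53: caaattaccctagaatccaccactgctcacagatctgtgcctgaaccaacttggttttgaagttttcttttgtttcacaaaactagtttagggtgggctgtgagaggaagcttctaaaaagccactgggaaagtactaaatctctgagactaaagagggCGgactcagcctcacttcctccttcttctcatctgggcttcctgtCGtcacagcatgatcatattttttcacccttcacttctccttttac
TSPAN1: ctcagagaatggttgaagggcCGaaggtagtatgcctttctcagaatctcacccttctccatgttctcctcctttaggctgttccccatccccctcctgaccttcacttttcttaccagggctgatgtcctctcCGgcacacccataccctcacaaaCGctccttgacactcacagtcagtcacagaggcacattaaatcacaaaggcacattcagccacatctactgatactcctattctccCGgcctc
TSPAN5 has 43 CG steps in this window and TSPAN15 14, whereas CD53 has 2 and TSPAN1 has 4. The windows of TSPAN14 and TSPAN10, other expressed TspanC8 genes, are as poor in CG as those, with 2 and 4. These windows lie 20971 and 5107 bases from the start of the most abundant transcript, so they may not describe the starts in use. RefSeq windows were found for 25 members. The 16 members above 1 TPM held 2 to 43 CG steps (median 16.5), UPK1B and TSPAN19 held 6 and 11, and the 7 below 1 TPM or listed at 0 held 1 to 27 (median 2). At least 10 CG steps were present in 12 of the 16 and in 1 of the 7, TSPAN11. In 4 members, TSPAN14, TSPAN10, ROM1 and TSPAN8, the RefSeq start lay more than 500 bases from the start of the most abundant transcript; without them the counts were 11 of 13 and 1 of 6. Over protein-coding symbols with a window, each by its first listed window and with no limit on distance, 88.0% of those above 1 TPM and 31.3% of those below 1 TPM or listed at 0 had at least 10, and 69.4% of all 14848. With the first listed window the members' counts were 13 of 16 and 1 of 7. The direction is that of coding genes in general. Going against it are TSPAN6, at 78.2 TPM with 7 CG steps, TSPAN12, at 21.8 TPM with 8, and TSPAN11, at 0.530 TPM with 27. TSPAN14 and TSPAN10, at 18.3 and 7.71 TPM, do so only by windows far from the start of their most abundant transcripts. With the first listed window at least 1 of TSPAN14 and TSPAN6 had 10 or more CG steps. CG reads the same on both strands, and a count of letters says nothing of methylation in these cells.

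**Figure D3:**
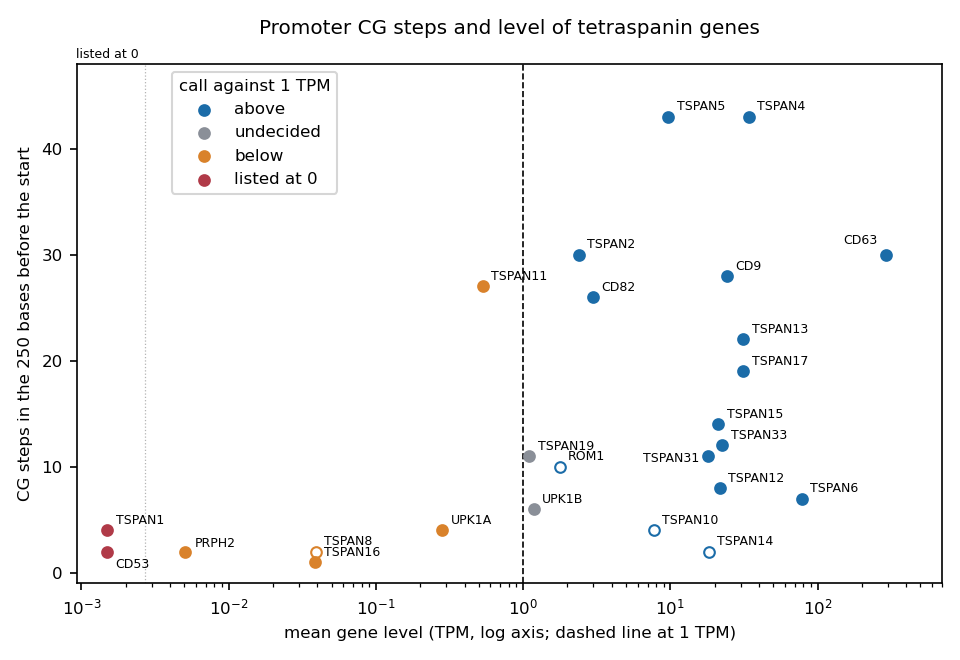
Number of CG steps in the 250 bases before the start (vertical axis) against mean level in TPM (log axis, values of 0 drawn at the left edge) for 25 tetraspanin genes, coloured by call; open points are the 4 whose RefSeq start lies over 500 bases from the start of the most abundant transcript. Members with 4 or fewer CG steps lie below 1 TPM or are listed at 0 except TSPAN14 and TSPAN10, and TSPAN11 is the only member below 1 TPM with more than 10.

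Most partner genes of the family lay above 1 TPM. Of 40 genes in the partner list, 31 lay above 1 TPM, 7 below, ITGB4 was undecided and UPK3A was listed at 0. Over protein-coding symbols tested 70.7% lay above and 23.7% below, and over all symbols tested 58.5% and 33.9%. These percentages leave out symbols listed at 0, whereas the 40 partner genes include UPK3A. The partner counts and the percentages therefore have different bases, and no test compared them. The common integrin subunit ITGB1 stood at 62.7, 63.1 and 61.9 TPM, and the laminin-binding alpha subunits that pair with it and bind CD151 were lower, ITGA6 at 10.5 ± 0.584, ITGA7 at 6.67 ± 0.833 and ITGA3 at 6.19 ± 0.555 TPM. ITGB4 stood at 0.884, 2.38 and 2.75 TPM and was called above 1 TPM only without replicate 1 (limma adjusted p = 0.00418). The hyaluronan receptor CD44 (0.162 ± 0.0430 TPM) and the tight junction gene CLDN1 (0.488 ± 0.0681 TPM) lay below it. The EWI proteins, the closest partners of CD9 and CD81, lay above 1 TPM, IGSF8 at 24.9, 25.6 and 26.1 TPM and PTGFRN at 23.0, 23.2 and 22.2 TPM, both near the level of CD9 and far below that of CD81.

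Of the vesicle sorting genes, PDCD6IP, SDCBP and TSG101 were among the higher partners, whereas SDC1 and SDC4 were lower. PDCD6IP, which encodes the ESCRT-associated protein ALIX, stood at 190.4, 189.8 and 195 TPM, the CD63-binding adaptor SDCBP (syntenin) at 77.2, 80.4 and 77.9 TPM and TSG101 at 47.8 ± 2.17 TPM. All 4 palmitoyltransferases lay above 1 TPM, against 70.7% of protein-coding symbols tested. They ranged from ZDHHC2, known to act on CD9 and CD151, at 11.2, 8.70 and 11.9 TPM to ZDHHC6 at 46.3 ± 3.56 TPM. CR2, a B cell partner of CD81, was called above 1 TPM at 1.85 ± 0.369 TPM. When only protein-coding transcripts were summed, CR2 and the EWI gene CD101 (4.93 ± 0.198 TPM over all transcripts) were undecided (limma adjusted p = 0.292 and 0.523). The CD9-binding growth factor gene HBEGF stood at 2.49 ± 0.464 TPM and its receptor gene EGFR at 5.05 ± 0.398 TPM. CD4, the photoreceptor channel genes CNGA1 and CNGB1, and UPK3B lay below 1 TPM, at 0.112 ± 0.101, 0.213 ± 0.0757, 0.119 ± 0.0988 and 0.529 ± 0.238 TPM, but UPK3B lost its call without replicate 1 or without replicate 2 (limma adjusted p = 0.131 and 0.130). UPK3B also had no TPM on transcripts typed protein coding in any library. Among the remaining partners, EPCAM (1.68 ± 0.165 TPM), IGSF3 (13.6 ± 0.184) and IFITM1 (3.58 ± 0.266) lay above 1 TPM. So did the vesicle sorting genes SDC1 (8.41 ± 0.151 TPM) and SDC4 (8.07 ± 0.383 TPM). The L6 genes, which carry transmembrane 4 names but belong to another family, were low: TM4SF1, TM4SF4 and TM4SF5 were listed at 0, and TM4SF18, TM4SF19 and TM4SF20 lay below 1 TPM.

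**Figure D4:**
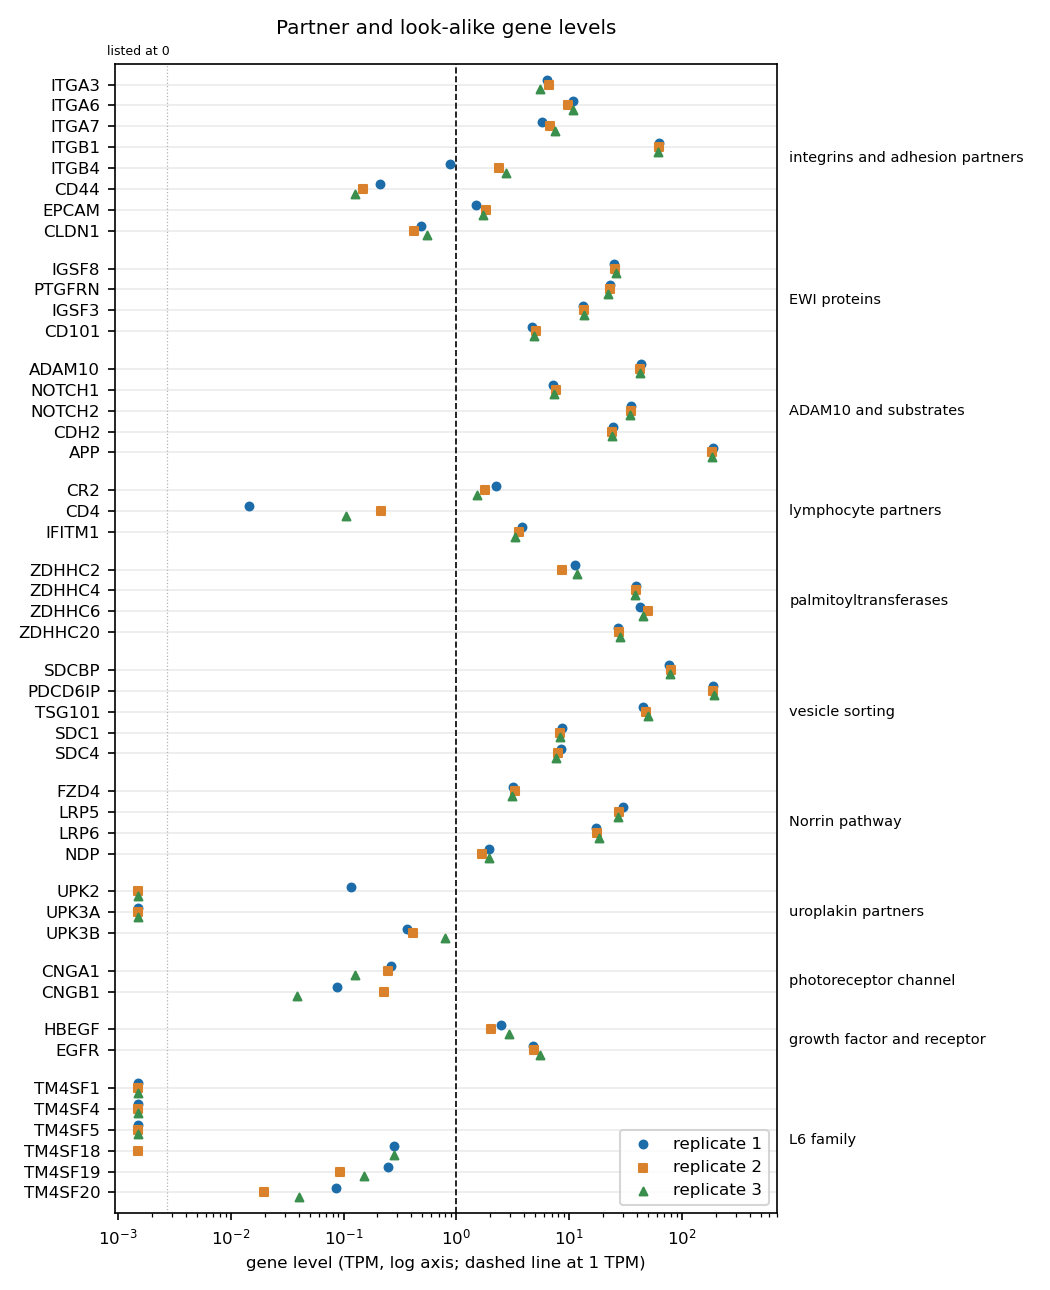
Levels in TPM (log axis, 1 point per library, values of 0 at the left edge) of the 40 partner genes and the 6 L6 look-alike genes, in groups named at the right. ADAM10 and its substrates, EWI, palmitoyltransferase and vesicle sorting genes lie right of 1 TPM, and uroplakin partners, photoreceptor channel and L6 genes lie left of it.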

How the data were processed

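The submitters' processing notes name kallisto and hg38. Strand setting, options and transcript release are not given in the sources used here. For each of 3 libraries the authors deposited TPM per transcript, which sum to 1000000. Per the file headers a further column holds estimated counts but names no library, so no count model was used. TPM keeps no depth, so depth per library is unknown. TPM was summed per gene symbol. Levels were tested with limma 3.58.1 (R 4.3.3) on log2(TPM + 0.01), with the variance trended on level and a null of 1 TPM, over symbols above 0 in at least 1 library; differences on this scale understate those of low genes. The method was tested on simulated data. Transcript types, coding lengths and positions came from GENCODE release 29, which matched 90.4% of all transcripts by identifier and may not be the release the authors used; promoters came from RefSeq. The 600-base coding length and the 500-base promoter distance, an added alternative, were set after values had been seen. Members and gene lists were chosen with earlier results of these data known. Named genes were all members, the fixed partner, look-alike and marker lists, and genes that share sequence with a member. Alternatives were pseudocounts of 0.1 and 1 TPM, a filter at a mean of 0.1 TPM, median-of-ratios rescaling, protein-coding transcripts only, and leaving out each replicate. Protein features that had been planned were not analysed here, and 2 genes of the partner and marker lists are not reported here.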

Additional observations from a re-analysis of the deposited data

How the results depend on the processing

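The 22 members above 1 TPM numbered 22 under every alternative tried. The 7 below numbered 3 with the filter at a mean of 0.1 TPM, since that filter leaves fewer genes to test, 6 with protein-coding transcripts only, and 5 to 6 with 1 replicate left out. In the partner list 29 lay above with protein-coding transcripts only, and 31 to 32 above and 5 to 7 below with 1 replicate left out. Among the members, 2 lost their call without replicate 1 (CD37 and TSPAN16) and 1 without replicate 2 (CD37). The median share of the most abundant transcript, 52.8%, was 61.2% when only protein-coding transcripts made up the total, and 50.2% to 53.7% with 1 replicate left out. Neighbouring pairs without overlap, an alternative chosen after seeing the data, numbered 17 with rescaling and 17 to 22 without 1 replicate. The undecided log2 level of TSPAN19 went from 0.13 to -0.78 with protein-coding transcripts only; no called member changed direction. Members from ROM1 (1.77 TPM) downward had few reads in the estimated counts, 29 for ROM1, 31 for UPK1B, 22 for TSPAN19 and 43 for TSPAN11. Those counts name no library and may not cover all of them. Members below these had fewer still. No paired analysis was possible because the libraries form 1 group.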
